A study of Mus musculus with 18 samples.

Results

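Cytotoxic T cells and natural killer (NK) cells kill target cells with granules of perforin and granzymes, while regulatory T cells restrain them. Checkpoint receptors on T cells, among them PD-1 and CTLA-4, dampen responses to a stimulus that lasts, and in tumors they are the targets of antibody therapy. RUNX transcription factors work as dimers with the Cbfb protein in these lineages: in mice they silence Cd4 in cytotoxic T cells, and they help to keep Foxp3 on in regulatory T cells. Described here are 10 genes of these cells, chosen by symbol out of 55450 genes in each table: Cd3e, Cd4, Cd8a, Cd8b1, Foxp3, Gzmb, Prf1, Nkg7, Pdcd1 and Ctla4. All 10 were found, and all 10 passed the filter on low counts.

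RNA was sequenced in bulk from 18 spontaneous tumors of the mouse mammary gland, each from its own animal per the series design. The labels give 14 tumors the genotype MMTV-Cre(+);Cbfb(het), 1 tumor MMTV-Cre(+);Cbfb(homo) and 3 tumors MMTV-Cre(+);Cbfb(wt), and all 18 tumors also carry 1 H1047R allele of Pik3ca, which the labels spell Pikca. MMTV-Cre drives Cre recombinase mainly in mammary epithelium, and in some lines also in blood cells. The labels name no treatment, age, litter or batch, nor the part of Cbfb that was changed or the cells that carry the change. In bulk RNA, fewer cells of a type and less RNA per cell cannot be told apart.

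Depth was 33210207 to 40974130 rounded expected counts per tumor. Cbfb itself, the gene named in the labels, was at 12.8 to 71.1 TPM in Cbfb(het) tumors, at 10.8 TPM in the Cbfb(homo) tumor and at 12.03, 22.1 and 35.7 TPM in Cbfb(wt) tumors, so its RNA did not separate the labels. Epcam, a marker of the labelled epithelial tissue, was under 200 TPM in 5 tumors, Cbfb(het) 1, 10, 12 and 14 and Cbfb(wt) 2. It was at 331 to 666 TPM in the other 13. The 5 epithelial markers together (Epcam, Krt8, Krt18, Krt14 and Krt5) did not set all of these tumors apart. Their sum was 736, 952 and 1152 TPM in Cbfb(het) 1, Cbfb(het) 12 and Cbfb(wt) 2. In Cbfb(het) 10 and 14 the sum was 9392 and 9762 TPM, above the Cbfb(het) median of 5507 TPM. Cbfb(het) 10 and 14 were far more alike than any other pair: their counts had a chi-square per degree of freedom of 4.18, against 85.9 for the next closest pair. They still differed by more than sampling noise and were kept as 2 tumors, and results are also given with both averaged into 1. Markers of other immune cells were present in all groups. The summed level of 6 macrophage markers was 322 to 2216 TPM in Cbfb(het) tumors, 939.8 TPM in the Cbfb(homo) tumor and 491 to 2656 TPM in Cbfb(wt) tumors. The 3 NK cell markers (Ncr1, Klrb1c, Klrd1) summed to 0.49 to 4.2 TPM in Cbfb(het), 1.35 TPM in Cbfb(homo) and 0.69 to 3.82 TPM in Cbfb(wt) tumors, and none of them was at 0 in any tumor.

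Several of these genes, among them Cd4, Foxp3, Gzmb and Prf1, are known targets of RUNX factors in mouse lymphocytes, so promoters of the set were searched for the RUNX core motif TGTGGT on both strands, in the 250 bases before the start that RefSeq lists on GRCm38.p6. The table held 8 of the 10 genes. The motif was found in 3 of their 9 windows and in 14% of all 32851 windows in the table. The 3 windows belong to Gzmb, Prf1 and Nkg7, which are the cytolytic granule genes of the set. With so few windows, a difference between groups of genes was not tested. An annotated transcript in the listed orientation was matched for 5 of the 8 genes. No match was found in the windows of Cd3e, Cd8a, Pdcd1, Ctla4 or Foxp3, for which 2 starts are listed. The windows of Gzmb and Prf1, which hold matches, and of Ctla4, a regulatory gene with none, are printed because the balance between these groups is followed through the tumors. Each is written 5′ to 3′ on the gene's own strand in lower case, with motif matches in capitals:
Gzmb, chr14:56262335-56262584, minus strand: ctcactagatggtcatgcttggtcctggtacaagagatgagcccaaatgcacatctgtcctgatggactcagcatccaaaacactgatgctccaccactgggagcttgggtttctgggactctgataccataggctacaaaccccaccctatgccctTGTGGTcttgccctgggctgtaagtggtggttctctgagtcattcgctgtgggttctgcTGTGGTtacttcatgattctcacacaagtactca
Prf1, chr10:61297586-61297835, plus strand: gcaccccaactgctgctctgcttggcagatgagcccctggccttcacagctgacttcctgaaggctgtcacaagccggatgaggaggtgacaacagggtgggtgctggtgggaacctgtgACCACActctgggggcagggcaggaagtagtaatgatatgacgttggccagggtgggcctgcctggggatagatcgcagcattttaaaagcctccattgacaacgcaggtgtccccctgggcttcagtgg
Ctla4, chr1:60908775-60909024, plus strand: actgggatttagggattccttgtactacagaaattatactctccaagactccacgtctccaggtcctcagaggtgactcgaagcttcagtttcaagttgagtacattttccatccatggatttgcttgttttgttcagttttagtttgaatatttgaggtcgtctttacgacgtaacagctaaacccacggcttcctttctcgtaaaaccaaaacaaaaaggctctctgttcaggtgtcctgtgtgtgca

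Counted back from the listed start, the first base of a match lay at -93 and -34 in Gzmb, at -130 in Prf1 and at -83 in Nkg7. The Gzmb matches read TGTGGT on the gene's strand, and those of Prf1 and Nkg7 read ACCACA, its reverse complement. Such a match is a description of the letters and does not show that a factor binds.

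All 10 genes were weakly expressed, and their order was loose. The median level over the 18 tumors was highest for Cd4 at 2.28 TPM, followed by Nkg7 at 1.96, Gzmb at 1.09, Cd3e at 1.06, Pdcd1 at 0.69, Cd8a at 0.63, Cd8b1 at 0.45 and Ctla4 at 0.40 TPM, with Foxp3 and Prf1 both at 0.21 TPM. TPM is scaled by gene length, so levels of different genes can be set side by side. For each of the 9 pairs of neighbours in this order, the mean log2 ratio over the tumors was smaller than its SD. Ctla4 exceeded Foxp3 in 15 of 18 tumors, with a log2 ratio of 0.45 ± 0.50 (SD, n = 18), whereas Cd4 exceeded Nkg7 in 10 of 18, with 0.15 ± 1.37. Counts of the 10 genes ran from 1 to 409 per tumor. A count of 1 has an exact 95% Poisson interval of 0.03 to 5.57 counts, and intervals of this kind cover counting error only.

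**Figure D1:**
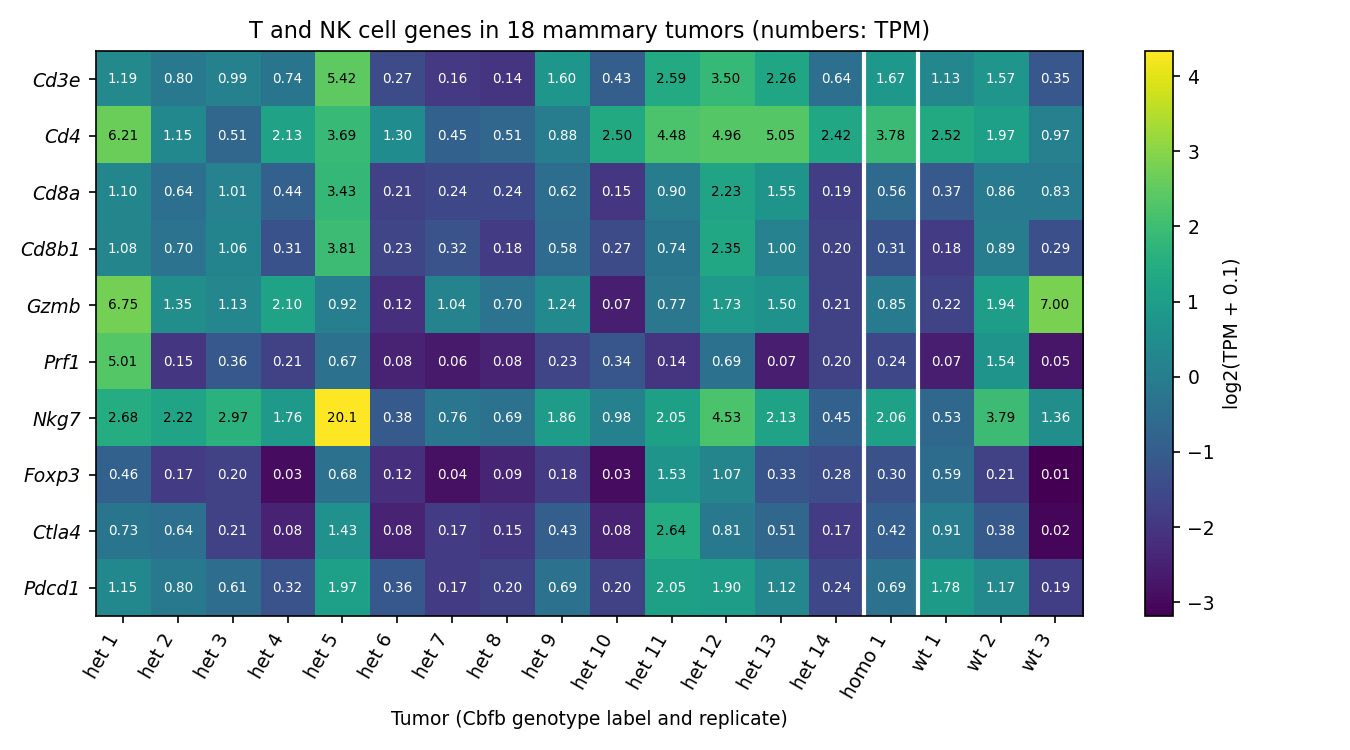
Level of each gene (rows) in each tumor (columns), with Cbfb(het) tumors on the left, the Cbfb(homo) tumor next and Cbfb(wt) tumors on the right. Numbers are TPM and colors are log2(TPM + 0.1). Cbfb(het) 5 is brightest in Cd3e, Cd8a, Cd8b1 and Nkg7, Cbfb(het) 1 and Cbfb(wt) 3 in Gzmb, and Cbfb(het) 11 in Foxp3 and Ctla4.

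Cd3e and the CD8 genes were spread over a wide range of tumors and peaked in Cbfb(het) 5. Cd3e, a signalling chain of the T cell receptor complex found in all T cells (chromosome 9, 44998740 to 45009627, minus strand, GRCm38), was at 0.14 TPM in the lowest, 0.90 TPM in the median and 5.42 TPM in the highest of the Cbfb(het) tumors. It was at 1.67 TPM in the Cbfb(homo) tumor and at 1.13, 1.57 and 0.35 TPM in Cbfb(wt) 1, 2 and 3. Cbfb(het) 5 and 12 were highest (5.42 and 3.50 TPM), Cbfb(het) 7 and 8 were lowest (0.16 and 0.14 TPM), and the genotypes overlapped.

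Cd8a and Cd8b1 encode the chains of the CD8 coreceptor of cytotoxic T cells, and Cd8a is also made by a class of dendritic cells. Both lie on the plus strand of chromosome 6, 35933 bases apart. Cd8a ran from 0.15 through a median of 0.63 to 3.43 TPM in Cbfb(het) tumors, against 0.37, 0.86 and 0.83 TPM in Cbfb(wt) 1, 2 and 3, with 0.56 TPM in the Cbfb(homo) tumor. For Cd8b1 the values were 0.18, 0.64 and 3.81 TPM in Cbfb(het) tumors (lowest, median, highest), 0.31 TPM in the Cbfb(homo) tumor and 0.18, 0.89 and 0.29 TPM in Cbfb(wt) tumors. Both genes had Cbfb(het) 5 and 12 as their highest tumors, and the genotypes overlapped in both.

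The log2 ratio of Cd8a to Cd8b1, on log2(TPM + 0.1), averaged 0.02 ± 0.29 over the 14 Cbfb(het) tumors and 0.65 ± 0.65 over the 3 Cbfb(wt) tumors (SD), and was 0.69 in the Cbfb(homo) tumor. Among the Cbfb(wt) tumors it was 0.75, -0.04 and 1.25 in tumors 1, 2 and 3, so Cbfb(wt) 2 lay at the Cbfb(het) mean, and in Cbfb(wt) 3 the ratio rests on 44 counts of Cd8a and 9 of Cd8b1. The difference of the means, -0.64, was -0.99 without Cbfb(wt) 2, -0.34 without Cbfb(wt) 3 and -0.22 with a pseudocount of 1 TPM.

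Cd4, the coreceptor of helper and regulatory T cells that some macrophages and dendritic cells also make, had the highest median of the genes and lay above Cd8a in 17 of 18 tumors. Nkg7 had the higher mean in Cbfb(het) tumors, 3.11 TPM against 2.59 TPM for Cd4. Cd4 was at 0.45, 2.28 and 6.21 TPM in Cbfb(het) tumors (lowest, median, highest), 3.78 TPM in the Cbfb(homo) tumor and 2.52, 1.97 and 0.97 TPM in Cbfb(wt) 1, 2 and 3. Its highest tumor was Cbfb(het) 1, where Cd3e was at 1.19 TPM and the macrophage markers summed to 1932 TPM, one of the highest sums. The log2 ratio of Cd8a to Cd4 was -1.43 ± 1.2 for Cbfb(het) tumors and -1.26 ± 1.15 for Cbfb(wt) tumors (SD, n = 14 and 3), with Cbfb(het) 3 the one tumor above 0, at 0.86. How much of the Cd4 RNA came from T cells was not tested.

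The cytolytic genes Gzmb and Prf1 did not peak where Cd3e and the CD8 genes did. Gzmb encodes granzyme B, a protease of killer cell granules, and its levels were 0.07, 1.09 and 6.75 TPM in Cbfb(het) tumors (lowest, median, highest), 0.85 TPM in the Cbfb(homo) tumor and 0.22, 1.94 and 7.0 TPM in Cbfb(wt) 1, 2 and 3. Cbfb(wt) 3 and Cbfb(het) 1 stood well above the rest, with 208 and 197 counts, and the third highest tumor, Cbfb(het) 4, was at 2.10 TPM. In Cbfb(wt) 3, Cd3e was at 0.35 TPM (12 counts), among the low values of the series. Other T cell genes were mixed there. Cd3d, Cd247, Trac and Trbc2 were below their medians over the tumors. Cd3g was near its median, at 2.06 against 2.155 TPM, and Trbc1 above it, at 3.67 against 3.085 TPM. Gzma, another granzyme gene of T and NK cells, was also highest in Cbfb(wt) 3, at 7.49 TPM. Other cytotoxic genes peaked elsewhere, among them Gzme, Fasl, Tbx21 and Ctsw, which were highest in Cbfb(het) 5, as Cd3e was. The 12 further cytotoxic effector genes taken up below, Gzma among them, summed to 17.98 TPM in Cbfb(wt) 3. That was near the median of the sum over the Cbfb(het) tumors, 17.8 TPM. The sum was 122.84 TPM in Cbfb(het) 5, 138.19 TPM in Cbfb(wt) 2 and 183.23 TPM in Cbfb(het) 1. It includes the chemokine gene Ccl5, the most abundant of the list, at a mean of 23.9 TPM over the tumors.

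Prf1 encodes perforin, which opens the target cell membrane to granzymes. It was at 0.06, 0.21 and 5.01 TPM in Cbfb(het) tumors (lowest, median, highest), at 0.24 TPM in the Cbfb(homo) tumor and at 0.07, 1.54 and 0.05 TPM in Cbfb(wt) 1, 2 and 3. Cbfb(het) 1 with 267 counts and Cbfb(wt) 2 with 89 counts stood apart from all other tumors, whose highest value was 0.69 TPM. Cbfb(wt) 3, the tumor with most Gzmb, held 2 Prf1 counts. The log2 ratio of Gzmb to Prf1 ran from -1.37 in Cbfb(het) 10 to 5.56 in Cbfb(wt) 3, a span of 123-fold. Each end rests on 2 counts of 1 gene, and with a pseudocount of 1 in place of 0.1 TPM the span was 9.54-fold. The log2 ratio had means of 1.42 ± 1.32 for Cbfb(het) and 2.26 ± 2.87 for Cbfb(wt) tumors (SD, n = 14 and 3).

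Both tumors rich in Prf1 had low Epcam, many macrophage markers (1932 TPM in Cbfb(het) 1 and 2656 TPM in Cbfb(wt) 2) and the highest NK cell marker sums, 4.2 and 3.82 TPM. Close to them in the NK marker sum were Cbfb(het) 5, at 3.73 TPM, and Cbfb(het) 12, at 3.38 TPM. Cbfb(het) 12 also had low Epcam and a macrophage sum of 2216 TPM, with Prf1 at 0.69 TPM. Of the 3 NK markers, Ncr1 was highest in Cbfb(het) 1 (1.44 TPM) and Cbfb(wt) 2 (1.21 TPM), while Klrd1 was highest in Cbfb(het) 5 (2.31 TPM) and Klrb1c in Cbfb(het) 12 (0.80 TPM). The part of these cells in the Prf1 level was not tested.

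Nkg7, which encodes a granule membrane protein of NK cells and cytotoxic T cells, followed the CD8 genes. Its lowest, median and highest values in Cbfb(het) tumors were 0.38, 1.96 and 20.1 TPM, with 2.06 TPM in the Cbfb(homo) tumor and 0.53, 3.79 and 1.36 TPM in Cbfb(wt) 1, 2 and 3. The value of 20.1 TPM belonged to Cbfb(het) 5, with 409 counts, and the next highest tumor, Cbfb(het) 12, was at 4.53 TPM. In Cbfb(het) 5, Gzmb was at 0.92 TPM, below its median over all tumors, and Prf1 at 0.67 TPM, above its median.

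**Figure D2:**
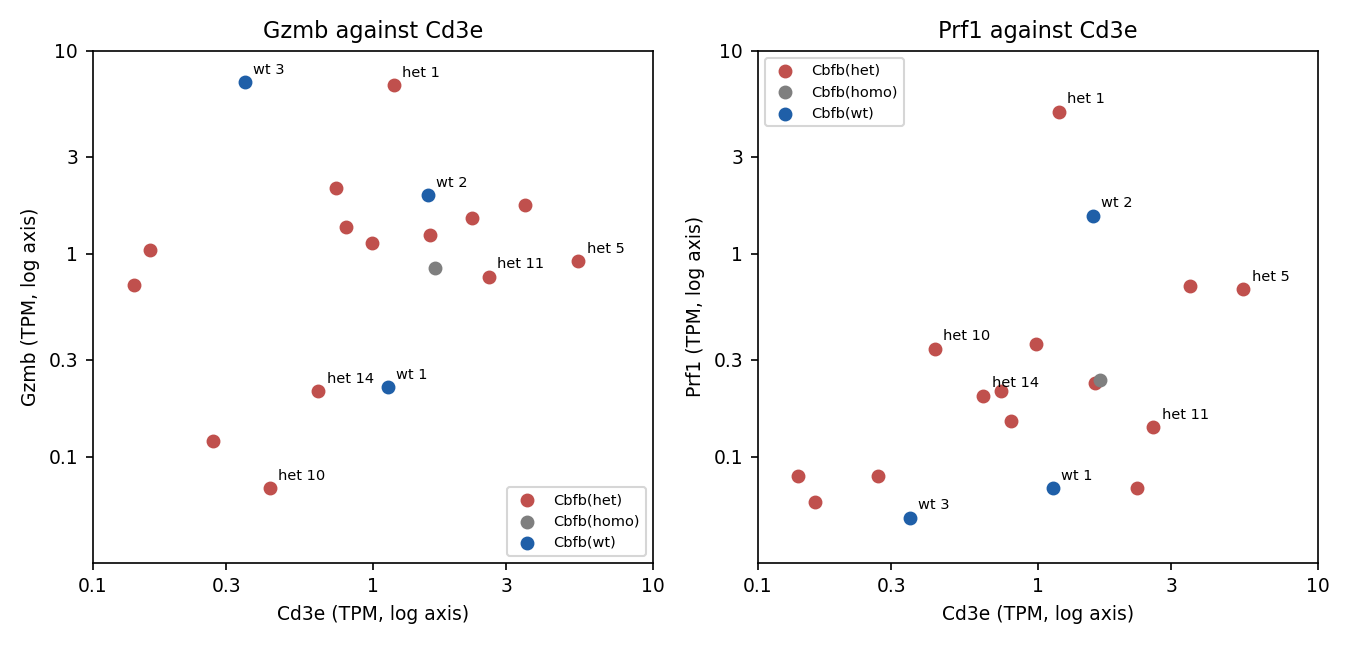
Gzmb (left) and Prf1 (right) against Cd3e in TPM, both axes logarithmic, with 1 point per tumor colored by genotype. Cbfb(wt) 3 combines 7.0 TPM of Gzmb with 0.35 TPM of Cd3e, Cbfb(het) 5 combines the most Cd3e (5.42 TPM) with 0.92 TPM of Gzmb, and Cbfb(het) 1 is highest in Prf1.

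Foxp3 and Ctla4, the regulatory side of the set, were scarce and shared their high tumors. Foxp3 encodes the transcription factor that defines regulatory T cells, and it was at 0.03, 0.19 and 1.53 TPM in Cbfb(het) tumors (lowest, median, highest), 0.30 TPM in the Cbfb(homo) tumor and 0.59, 0.21 and 0.01 TPM in Cbfb(wt) 1, 2 and 3. Cbfb(het) 11 (133 counts), 12 (79 counts) and 5 (75 counts) were highest, while 6 tumors had fewer than 10 counts. At such counts the TPM did not follow the count closely between tumors: 8 counts gave 0.28 TPM in Cbfb(het) 14 and 6 counts gave 0.09 TPM in Cbfb(het) 8. Foxp3 overlaps the genes Ppp1r3f, Gm36995 and Ccdc22 on the other strand, so reads could be shared between them where strand was not used in counting. It also overlaps Flicr on its own strand, where strand would not part the reads. Other members overlap genes too: Cd3e overlaps Gm48720 on its own strand and Gm48719 on the other, and Ctla4 overlaps Rpl18-ps1 on its own.

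Ctla4 encodes a checkpoint receptor that regulatory T cells carry at rest and other T cells gain on activation. Values of 0.08, 0.32 and 2.64 TPM were found in Cbfb(het) tumors (lowest, median, highest), 0.42 TPM in the Cbfb(homo) tumor and 0.91, 0.38 and 0.02 TPM in Cbfb(wt) 1, 2 and 3. Cbfb(het) 11 was highest with 116 counts, as for Foxp3, and Cbfb(wt) 3 had 1 count of each gene.

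Pdcd1 encodes PD-1, a checkpoint receptor of activated and chronically stimulated T cells. It was at 0.17, 0.65 and 2.05 TPM in Cbfb(het) tumors (lowest, median, highest), 0.69 TPM in the Cbfb(homo) tumor and 1.78, 1.17 and 0.19 TPM in Cbfb(wt) 1, 2 and 3. It had the narrowest range of the 10 genes, 12.1-fold between the highest and the lowest tumor, against 153-fold for Foxp3. Relative to Cd3e, the log2 ratio of Pdcd1 was -0.54 ± 0.58 in Cbfb(het), -1.16 in the Cbfb(homo) and -0.14 ± 0.66 in Cbfb(wt) tumors (SD, n = 14, 1 and 3), and it was highest in Cbfb(wt) 1, at 0.61, and lowest in Cbfb(het) 5, at -1.42.

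Correlations between the genes were computed within the 14 Cbfb(het) tumors, so that genotype did not enter, on log2 CPM (CPM, counts scaled to library size with TMM factors). All 45 pairs had a positive Pearson's r, from 0.11 to 0.96, and 22 of 45 pairs (48.9%) had an adjusted p under 0.05 by a two-sided permutation test (24 by Spearman's rho, 20 by both). As background, 4.35% of all 154940 pairings of a member with another gene had an r at or above 0.61, the smallest r among the 22 pairs. The pairs share tumors and the content of leukocytes, so they are not independent of one another.

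**Figure D3:**
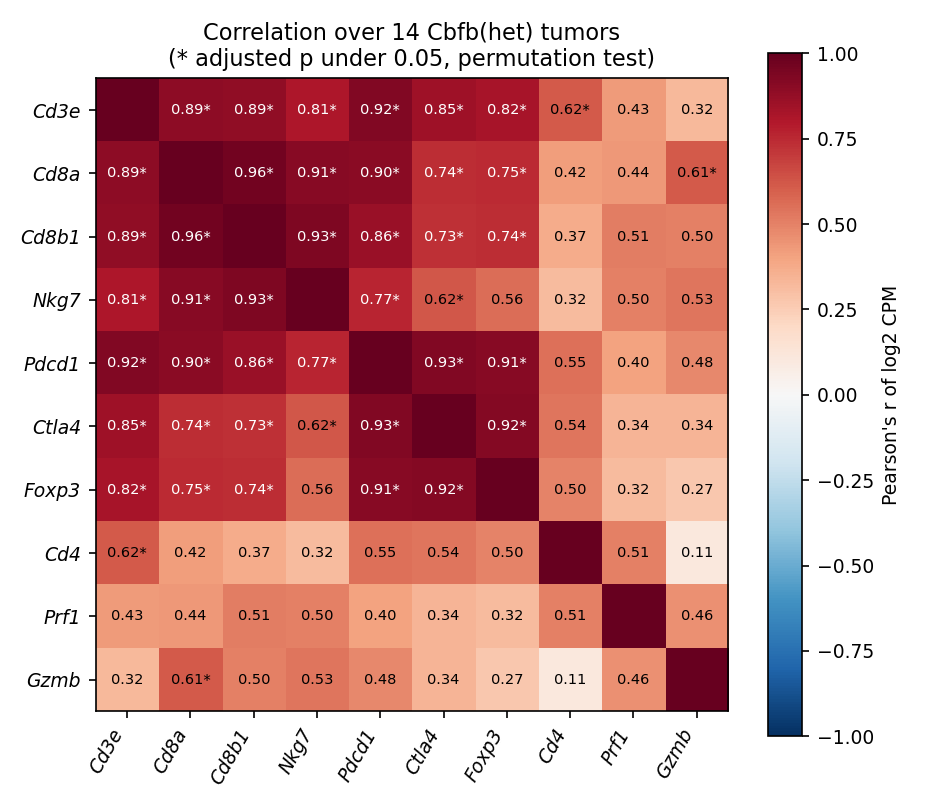
Pearson's r of log2 CPM between the 10 genes over the 14 Cbfb(het) tumors, with an asterisk where the adjusted p of the permutation test was under 0.05. Among Cd3e, Cd8a, Cd8b1, Nkg7, Pdcd1, Ctla4 and Foxp3 every pair but Nkg7 with Foxp3 (r = 0.56) is starred, and in the rows of Cd4, Prf1 and Gzmb only Cd4 with Cd3e (0.62) and Gzmb with Cd8a (0.61) are.

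Within this set, 2 closely tied groups stood out by their values. The CD8 genes and Nkg7 formed one: r was 0.96 between Cd8a and Cd8b1 (rho 0.95), 0.93 between Cd8b1 and Nkg7 (rho 0.95) and 0.91 between Cd8a and Nkg7 (rho 0.88). The other held Foxp3, Ctla4 and Pdcd1: r was 0.92 between Foxp3 and Ctla4 (rho 0.93), 0.93 between Pdcd1 and Ctla4 (rho 0.89) and 0.91 between Foxp3 and Pdcd1 (rho 0.90). The groups were read from the values and are not apart from each other, since Cd8a and Pdcd1 had an r of 0.90 (rho 0.85, permutation test, adjusted p = 0.000135 and 0.00152). Cd3e was tied to both, with r of 0.92 to Pdcd1 (rho 0.91) and 0.89 to Cd8a (rho 0.83). The 8 pairs named in the groups and with Cd3e, other than Cd8a and Pdcd1, had an adjusted p of 5.62e-05 for r and at most 0.0022 for rho, by permutation test. Without the 2 tumors farthest from the median on the x axis their r was 0.85 to 0.96, with a largest adjusted p of 0.00279.

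Cd8a and Foxp3 were also correlated, r = 0.75 and rho = 0.76 (permutation test, adjusted p = 0.00664 and 0.00800, n = 14), so tumors rich in one tended to be rich in the other. Without the 2 tumors farthest from the median of Cd8a, r was 0.65 (adjusted p = 0.0493), and without the 4 Cbfb(het) tumors of low Epcam it was 0.64 (adjusted p = 0.0875, permutation test, n = 10).

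Gzmb, Prf1 and Cd4 had few correlations that passed. For Gzmb and Prf1, their own correlation was r = 0.46 and rho = 0.31 (permutation test, adjusted p = 0.143 and 0.316, n = 14), and Gzmb had an r of 0.32 with Cd3e (adjusted p = 0.288) and 0.27 with Foxp3 (adjusted p = 0.364). Gzmb and Cd8a passed on r, at 0.61, but not on rho, at 0.51 (permutation test, adjusted p = 0.0413 and 0.102), and with Cbfb(het) 10 and 14 averaged into 1 the r was 0.53 (adjusted p = 0.105). With Nkg7 it was the reverse, as Gzmb had a rho of 0.60 and an r of 0.53 (permutation test, adjusted p = 0.0499 and 0.0895). None of the 9 pairs of Prf1 passed on r, and of them only that with Nkg7 passed on rho, at 0.67 (permutation test, adjusted p = 0.0233). Cd4 passed on r only with Cd3e, at 0.62 (rho 0.68, permutation test, adjusted p = 0.0413 and 0.0205). Without the 2 tumors farthest from the median of Cd3e that r was 0.44 (permutation test, adjusted p = 0.193), on 12 tumors and a narrower range of Cd3e. On log2(TPM + 0.1) over all 14 tumors it was 0.68 (permutation test, adjusted p = 0.0184). On that scale Cd4 also passed on r with Foxp3 and Pdcd1, at 0.65 each (permutation test, adjusted p = 0.0249 and 0.0300). On log2 CPM, Cd4 with Pdcd1 passed on rho, at 0.68, but not on r, at 0.55 (permutation test, adjusted p = 0.0211 and 0.0827).

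Ptprc, the CD45 gene of all leukocytes, was at 4.0, 13.6 and 49.6 TPM in Cbfb(het) tumors (lowest, median, highest), 19.4 TPM in the Cbfb(homo) tumor and 10.8, 47.02 and 14.6 TPM in Cbfb(wt) 1, 2 and 3. In the Cbfb(het) tumors, 8 of the 10 genes correlated with it by Pearson's r, 7 of them by both measures, led by Cd3e at r = 0.73 and rho = 0.84 (permutation test, adjusted p = 0.0188 and 0.0031 over the 10 relations). The share of all genes that correlate with Ptprc was not computed. This count therefore has no background beside it and does not set the 10 genes apart from others. Without the 2 tumors farthest from the median of Ptprc, Cd3e alone passed, at r = 0.81 (permutation test, adjusted p = 0.0152). Over those 12 tumors Cd4, Cd8a, Cd8b1, Foxp3, Pdcd1 and Ctla4 missed the threshold at an r of 0.57 to 0.62 (permutation test, adjusted p = 0.0733 each), beside 0.57 to 0.72 over all 14. For Prf1 the r was 0.28 over those 12 tumors and 0.63 over all 14, a larger drop than in these genes. Leaving out the extreme tumors also narrows the range of Ptprc. Gzmb had an r of 0.30 with Ptprc and Nkg7 of 0.44, and neither passed (adjusted p = 0.297 and 0.129).

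For each gene, the genes of most similar pattern were listed among 15494 others by Pearson's r over 17 values, the 18 tumors with Cbfb(het) 10 and 14 averaged, as a description without a test. Cd3e was closest to Cd6, a T cell surface receptor gene (r = 0.95), Gimap3, a GTPase gene of lymphocytes (0.93), and Sit1, an adaptor gene of T cell receptor signalling (0.92). Cd8a and Cd8b1 were each other's nearest gene (0.93), and Nkg7 came next for both (0.92 and 0.91). Cd8a was also close to Gimap7 (0.91), as was Nkg7 (0.90), while Cd8b1 was close to the chemokine receptor gene Cxcr3 (0.90). Foxp3 and Ctla4 were likewise each other's nearest gene (0.94), followed by Pdcd1 and by the costimulatory receptor gene Icos (0.91 with Foxp3 and 0.90 with Ctla4). Pdcd1 was nearest to Cd6 (0.94).

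The remaining genes had other neighbours. Prf1 was closest to Clec4a2, a C-type lectin receptor gene of myeloid cells (0.95), and to Camk1, a calcium-dependent kinase gene, and Plekho1 (0.93 each), and its best placed member of the set was Cd8b1, at rank 1998. Gzmb was closest to Tmem37 (0.81), to Tead2, a transcription factor gene of the Hippo pathway (0.77), and to Gzma (0.75). Cd8a stood at rank 282 for Gzmb and Foxp3 at rank 11127. Cd4 had as neighbours Gcnt4 (0.90), a glycosyltransferase gene, Col23a1 (0.89), a collagen gene, and Gpr174 (0.88), a lymphocyte receptor gene, with Cd3e at rank 293.

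The balance of effector to regulatory genes was taken as the mean log2(TPM + 0.1) of Gzmb, Prf1 and Nkg7 minus that of Foxp3 and Ctla4. It was above 0 in 16 of 18 tumors. The genes differ in base level, with medians of 1.96, 1.09 and 0.21 TPM for Nkg7, Gzmb and Prf1. Those of Ctla4 and Foxp3 were 0.40 and 0.21 TPM. A value of 0 therefore does not mark equal numbers of effector and regulatory cells. The balance was 1.15 ± 1.07 (SD, n = 14) in Cbfb(het) tumors, with a range of -1.46 to 2.82. It was 0.96 in the Cbfb(homo) tumor and -1.36, 2.61 and 3.33 in Cbfb(wt) 1, 2 and 3. The 3 Cbfb(wt) tumors thus spanned nearly the whole range of the series, and 13 of 14 Cbfb(het) tumors lay within it. The difference between the genotypes, -0.38, was smaller than either SD. It was -1.83 without Cbfb(wt) 1 and 0.52 without Cbfb(wt) 3. As a score over genes that were chosen with results of these tumors known, it was not tested.

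Different genes set the balance in different tumors. The tumors below 0, Cbfb(het) 11 and Cbfb(wt) 1, had Foxp3 at 1.53 and 0.59 TPM and Ctla4 at 2.64 and 0.91 TPM. Gzmb was at 0.77 and 0.22 TPM there, and Prf1 at 0.14 and 0.07 TPM. Nkg7 was at 2.05 and 0.53 TPM, just above and below its median of 1.96 TPM. Cbfb(het) 1, at 2.75, was high in Gzmb and Prf1 while Foxp3 was also above its median, at 0.46 TPM. Cbfb(het) 4, at 2.82, and Cbfb(wt) 3, at 3.33, had 2 and 1 Foxp3 counts and 2 and 1 Ctla4 counts, so their values depend on counts whose exact Poisson intervals run up to 7.22 and 5.57. In Cbfb(het) 5, the tumor highest in Cd3e, Cd8a and Cd8b1, the balance was 1.2, close to the median of Cbfb(het) tumors of 1.18.

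The log2 ratio of Cd8a to Foxp3, where 0 likewise does not mark equal cell numbers, was above 0 in 15 of 18 tumors. Its mean was 1.10 ± 0.86 over the 14 Cbfb(het) tumors and 1.39 ± 1.83 over the 3 Cbfb(wt) tumors (SD), and the Cbfb(homo) tumor was at 0.72. The 3 tumors below 0 were Cbfb(het) 11 at -0.70, Cbfb(het) 14 at -0.39 and Cbfb(wt) 1 at -0.55. Cbfb(het) 10, which was otherwise nearly identical to Cbfb(het) 14, had a ratio of 0.94 on 10 Cd8a and 2 Foxp3 counts, so this ratio was not reliable at such counts.

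**Figure D4:**
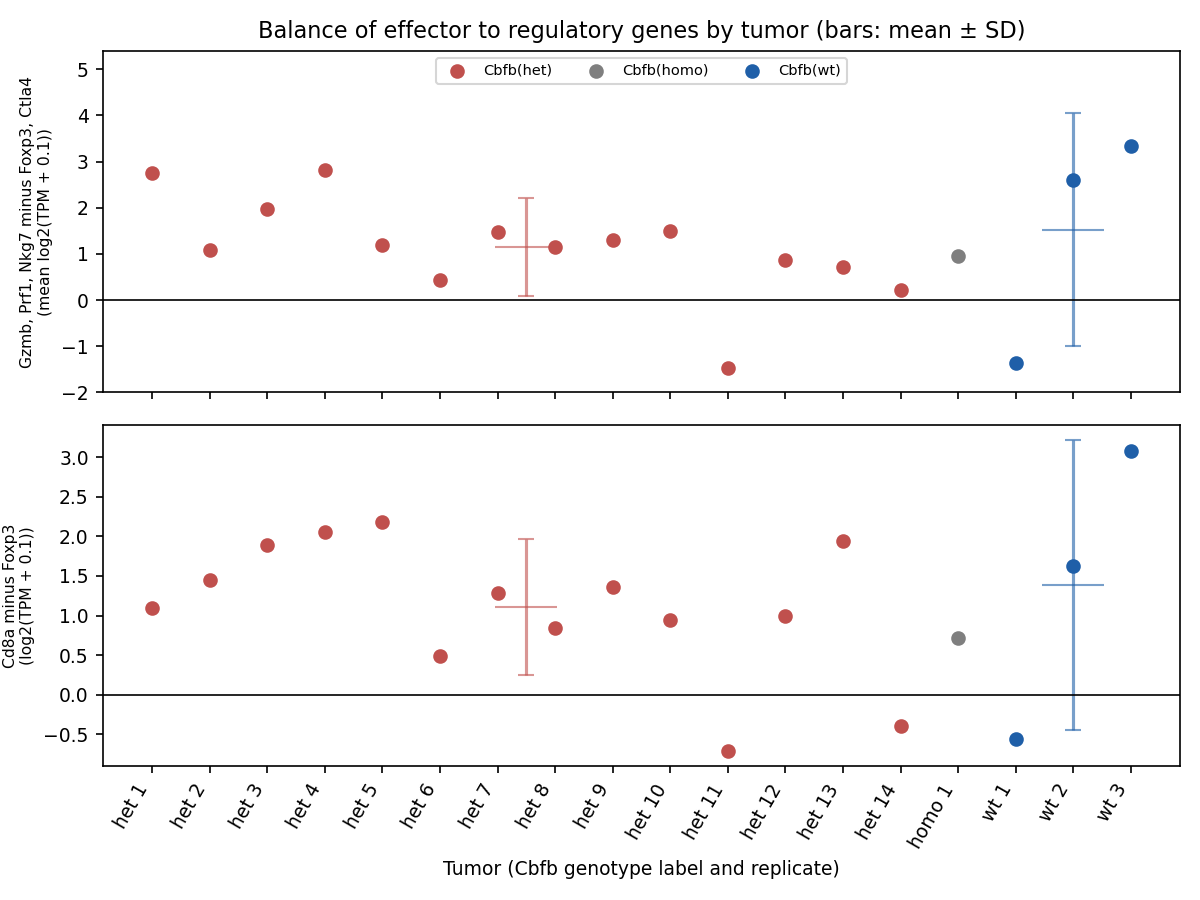
Balance of cytolytic genes to regulatory genes (top) and of Cd8a to Foxp3 (bottom) in each tumor on the log2(TPM + 0.1) scale, with Cbfb(het) tumors on the left, the Cbfb(homo) tumor next and Cbfb(wt) tumors on the right. Points are tumors and bars are the mean ± SD of a genotype. Cbfb(het) 11 and Cbfb(wt) 1 lie below 0 in both panels, and Cbfb(wt) 3 is the highest in both.

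The comparison of Cbfb genotypes asked whether tumors labelled Cbfb(het) differ from those labelled Cbfb(wt). None of the 10 genes passed the adjusted threshold of 0.05 in edgeR's quasi-likelihood test over all 18475 genes tested, where 0% of all genes passed in either direction. At an unadjusted p under 0.05, 0 of the 10 genes passed, against 3.37% of all genes, and limma-voom also called 0 of them after adjustment, as did DESeq2, which gave no p for Prf1. The log2 fold change was positive for 8 genes and negative for 2, with a median of 0.49, beside a median of 0.03 and 53.2% positive values over all genes. The genes move together from tumor to tumor, so their common sign is not a count of independent results.

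In each of the 10 genes, at least 3 Cbfb(het) tumors lay within the range of the Cbfb(wt) tumors. The Cbfb(homo) tumor, which entered no test, lay above every Cbfb(wt) tumor in 2 of the 10 genes, Cd3e and Cd4, against 18.9% of all genes tested. By role, the T cell genes stood at log2 fold changes of 0.86 ± 0.88 (SE) for Cd3e, 0.51 ± 0.63 for Cd4, 0.64 ± 0.77 for Cd8a and 1.14 ± 0.86 for Cd8b1, each with an edgeR adjusted p of 0.999. Among the cytolytic genes, Gzmb was at -0.99 ± 0.91, Prf1 at 0.26 ± 1.28 and Nkg7 at 0.91 ± 1.02. The regulatory and checkpoint genes were at 0.45 ± 1.09 for Foxp3, 0.46 ± 1.08 for Ctla4 and -0.19 ± 0.71 for Pdcd1, again with an edgeR adjusted p of 0.999. Single tumors set several of these values. Gzmb was at 0.60 without Cbfb(wt) 3, Foxp3 at -0.11 and Ctla4 at -0.09 without the same tumor, Pdcd1 at 0.43 without Cbfb(wt) 1, and Prf1 at -0.89 without Cbfb(het) 1 and at 3.51 without Cbfb(wt) 2. Nkg7 was at 0.13 without Cbfb(het) 5 and at 1.83 without Cbfb(wt) 2, and Cd8b1 at 2.01 without Cbfb(wt) 2. Without Cbfb(het) 5, Cd3e was at 0.46, Cd8a at 0.29 and Cd8b1 at 0.71. Cd4 was at 0.23 without Cbfb(wt) 3, and Foxp3 at 1.55 and Ctla4 at 1.56 without Cbfb(wt) 1. With 3 Cbfb(wt) tumors that differed so much among themselves, a change of the size of these standard errors could not be detected, and the lack of a call does not show that the genotypes are alike.

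**Figure D5:**
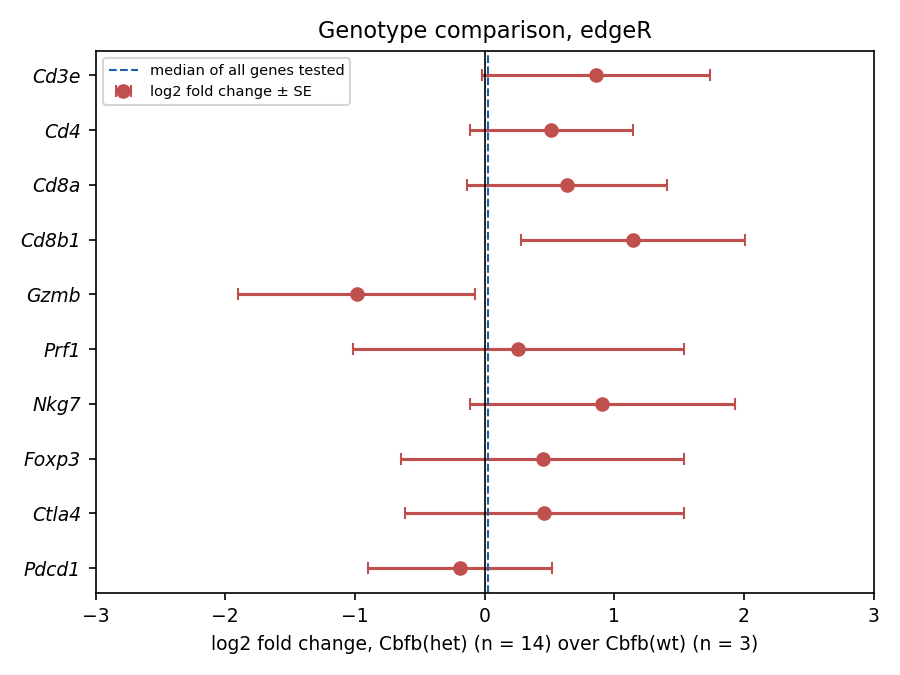
Log2 fold change of each gene in 14 Cbfb(het) over 3 Cbfb(wt) tumors with its standard error (points and bars), from edgeR, with the median of all genes tested as a dashed line. Gzmb and Pdcd1 are the 2 genes left of 0, and no gene passed the adjusted threshold.

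Other genes of the same pathways likewise showed no call between the genotypes, with 0 of each list passing in either direction (edgeR, adjusted over all genes). All 14 genes of the T cell receptor complex and its signalling were tested, and their median log2 fold change was 0.50 with 14 positive. The receptor constant genes Trbc2, Trac and Trbc1 were its most abundant members, at mean levels of 25.5, 4.26 and 3.54 TPM. Their log2 fold changes were 0.63 ± 0.66 (SE), 0.88 ± 0.78 and 0.21 ± 0.68. Trbc2 and Cd3e did not go together in every tumor. They were at 76.6 and 2.59 TPM in Cbfb(het) 11, but at 39.7 and 0.43 TPM in Cbfb(het) 10 and at 5.26 and 1.57 TPM in Cbfb(wt) 2. Of 10 NK receptor and factor genes, 9 were tested, with a median of 0.24 and 6 positive. Their most abundant members were Xcl1, a chemokine gene, Klrc1 and Klrk1, both NK receptor genes, at -0.19 ± 0.81, 0.24 ± 1.13 and 1.08 ± 1.02.

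Among 12 further cytotoxic effector genes 10 were tested, with a median of 0.52 and 7 positive. The chemokine gene Ccl5 and the granzyme genes Gzmc and Gzme stood at -0.83 ± 1.06 (SE), 0.46 ± 1.09 and 2.31 ± 1.56. Gzmc to Gzmf are close copies of one another, and how reads were split between them is uncertain. Gzmc reached 32.5 TPM in Cbfb(het) 1, the tumor highest in Prf1, and Gzme 29.6 TPM in Cbfb(het) 5. Of 8 regulatory T cell genes 7 were tested, with a median of 0.16 and 4 positive, and Lrrc32, Tnfrsf18 and Tnfrsf4, whose products are a carrier of latent TGF-beta and a pair of TNF receptors, stood at 0.16 ± 0.47, -0.60 ± 0.70 and -1.88 ± 0.69. Tnfrsf4 had an unadjusted p of 0.0148 and an edgeR adjusted p of 0.999, and its highest tumor was Cbfb(wt) 1 at 37.7 TPM. Mean levels of Lrrc32, Tnfrsf18 and Tnfrsf4 over the tumors were 29.2, 10.8 and 5.60 TPM, beside 0.35 TPM for Foxp3. Which cells made the RNA of these 3 genes was not tested. Of 14 checkpoint receptor and ligand genes 13 were tested, with a median of 0.17 and 8 positive. Vsir, Tnfrsf9 and Havcr2, which lead this list in level, stood at -0.41 ± 0.41, -0.71 ± 0.85 and -0.42 ± 0.49, and myeloid cells also make Vsir and Havcr2.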

How the data were processed

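Per the labels' protocols, Trizol was used to extract RNA and the TruSeq Stranded mRNA kit to build libraries. Per the submitters' processing notes, the tools were STAR 2.7.0f and RSEM 1.3.1 on mm10. The strand setting was not given in the sources used here, nor was the annotation. The 55450 gene IDs all occur in GENCODE release M21, the source of positions. The authors deposited expected counts, RSEM's estimated reads per gene, not normalized, and TPM values, scaled to gene length and to 1 total per tumor. Expected counts were rounded for edgeR 4.0.16 in R 4.3.3 (filterByExpr, TMM, robust quasi-likelihood F-test, Benjamini-Hochberg over 18475 genes, no covariate, Cbfb(homo) left out). The standard error is the fold change divided by the square root of F. The fit was also run on simulated counts with known changes. Its outcome is not given here, so nothing about the power of the genotype comparison is drawn from it. Log2 CPM used a prior count of 2 and balances a pseudocount of 0.1 TPM. Correlations used 100000 permutations, so 1e-05 is the smallest p possible, and adjustment over 45 pairs or 10 relations. Alternatives used DESeq2 1.42.0 and limma 3.58.1. Named were all members, the 3 nearest genes of each and the 3 most abundant genes of each list, while genes given beside a single tumor were chosen after their values were seen. Unnamed gene models and receptor segments were passed over as neighbours. Members and lists were chosen with earlier results of these data known.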

Additional observations from a re-analysis of the deposited data

Results flagged for a closer look

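Values of the Cbfb(homo) tumor, which entered no test, lay above every Cbfb(wt) tumor in 2 of the 10 genes, a share near the 18.9% of all 18475 genes tested. Cd3e was at 1.67 TPM (51 counts) in the Cbfb(homo) tumor and at most 1.57 TPM in Cbfb(wt) tumors. Cd4 was at 3.78 TPM (305 counts) in the Cbfb(homo) tumor and at most 2.52 TPM in Cbfb(wt) tumors. Both values ranked 5 of 18 and lay within the range of the Cbfb(het) tumors. With 1 tumor of this genotype, no test was made.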

How the results depend on the processing

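No member passed the adjusted threshold in any of the 26 alternatives to the edgeR fit that gave it a p, which DESeq2 did not for Prf1, and the smallest adjusted p of a member was 0.777 (edgeR, DESeq2 or limma). Of 260 alternative values of the members' fold changes, 11 had the opposite sign of the reported one. With sample quality weights in limma-voom, Cd4 was at -0.17 and Gzmb at 0.24. Foxp3 was at -0.073 with Ptprc as a covariate, and Prf1 at -0.92 in DESeq2. Leaving out 1 tumor at a time gave ranges of -0.11 to 1.55 for Foxp3, -1.54 to 0.60 for Gzmb, -0.89 to 3.51 for Prf1, -0.68 to 0.43 for Pdcd1 and -0.093 to 1.56 for Ctla4, and for the balance of cytolytic to regulatory genes -1.83 to 0.52. The ranges were -1.25 to 0.56 for the balance of Cd8a to Foxp3 and -1.82 to 0.81 for that of Gzmb to Prf1, against -0.28 and -0.84. Without Cbfb(wt) 1 or Cbfb(wt) 3, Prf1 was at -0.26 or -0.29. Over all genes, 1 gene was called without the filter on low counts and 1 with all 18 tumors in the fit, against 0 as reported. At an unadjusted p under 0.05 edgeR had 623 genes, DESeq2 932 and limma-voom 487. Of the genes correlated with Ptprc, 8 as reported, 3 were left without the tumors of low Epcam, an alternative chosen after seeing the data, and 1 without the 2 tumors farthest from the median. Without the tumors of low Epcam, r was 0.66 for Foxp3, 0.64 for Ctla4, 0.70 for Cd8b1, 0.62 for Cd4 and 0.27 for Prf1, which all missed the threshold, on 10 tumors. The cause of these changes was not tested. The pairs of members correlated by Pearson numbered 20 to 26 under the 5 alternatives, against 22. By Spearman they were 15, against 24, without the tumors of low Epcam and also without the 2 farthest tumors, and 14 and 15 passed by both measures, against 20. No paired analysis was possible because the labels give every tumor the same repeat number and the replicate numbers only follow the order of the samples. P-values measure the spread between tumors, each from its own animal per the series design. Cbfb(het) 10 and 14 entered the tests as 2 tumors although far more alike than any other pair. With both averaged into 1, 22 pairs of members and 8 genes with Ptprc passed by Pearson's r (permutation test, adjusted p under 0.05). The 3 Cbfb(wt) tumors and counts as low as 1 limit what could be detected.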
